A study of Mus musculus with 9 samples.

Results

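The mouse Hox genes were followed across sorted lung cells that carried 2 reporters, by cluster and by position within the cluster. Every gene row of the count table named Hoxa, Hoxb, Hoxc or Hoxd plus a paralog number was taken, whatever its values, which gave 31 of the 19348 genes in the table. RefSeq lists 39 mouse Hox genes. The table held 9 of the 11 Hoxa genes, all 10 Hoxb genes, 6 of the 9 Hoxc genes and 6 of the 9 Hoxd genes, and the 8 others were not analysed here. All 31 were found in the GENCODE annotation of GRCm38, Hoxa on chromosome 6, Hoxb on chromosome 11, Hoxc on chromosome 15 and Hoxd on chromosome 2.

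RNA-seq had been run on lung cells from C57BL/6J mice with the genotype Col1_GFP;Foxf1_tdTomato, which all 9 libraries share. Col1_GFP reports type I collagen in green, and Foxf1_tdTomato reports Foxf1 in red, a forkhead factor of lung mesenchyme and endothelium. The 3 populations, with 3 libraries each, were DBL cells with both reporters (replicates 1, 3 and 4), TDonly cells with the Foxf1 reporter alone (replicates 1, 2 and 3) and ColGFP cells with the collagen reporter alone (replicates 1, 2 and 3). The sources used here do not give age, sort gates, how many mice stand behind a library or how the reporter alleles were built.

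Hox genes encode homeodomain transcription factors that give cells along the body axis their regional identity. They sit in 4 clusters, where genes with low paralog numbers are at the 3′ end, are switched on early and reach anterior parts of the embryo, and genes with high numbers act later and more posteriorly. The factors bind DNA together with TALE homeodomain partners of the Pbx, Meis and Pknox families. Lung mesenchyme is known for genes of the anterior and central part of the Hoxa and Hoxb clusters, above all Hoxa5, whose loss in mice disturbs the development of the airways and lung. Paralogs 1 to 4 are called anterior here, 5 to 8 central and 9 to 13 posterior.

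Total counts were 17820969 to 26147475 per library. The Foxf1a row had 87.3 to 113 CPM (counts relative to library size after TMM scaling) in DBL libraries, 229 to 279 CPM in TDonly and 54.5 to 62.6 CPM in ColGFP. Col1a1 had 9539 to 13220 CPM in DBL, 373 to 1566 CPM in TDonly and 4939 to 9593 CPM in ColGFP. The lowest Col1a1 value of each population was in replicate 1. The sequencing core's numbers fall into 2 ranges, with the replicate 1 libraries in the lower range and the other 6 in the higher. A chi-square statistic of counts over genes, per degree of freedom, was 54.5 to 101 for the pairs of replicates that included replicate 1 and 5.34 to 15.1 for the others, so no library repeated another. Values within the higher range are therefore given beside the results.

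The summed CPM of 10 endothelial markers was 3752 to 4706 in DBL, 10760 to 11860 in TDonly and 684 to 990 in ColGFP. That of 10 fibroblast markers was 33010 to 42920 in DBL, 1320 to 5202 in TDonly and 18780 to 34860 in ColGFP. Col1a1, Col1a2 and Col3a1 held most of this sum, and a type I collagen reporter was used for sorting. Of the 10, 0 were called in either direction between DBL and ColGFP (edgeR, adjusted p under 0.05). Their log2 fold changes there ran from -0.90 (Pdgfra) to 1.19 (Dcn). The sum of 8 smooth muscle and pericyte markers was 590 to 827 CPM in DBL, 176 to 217 CPM in TDonly and 910 to 2148 CPM in ColGFP. That of 7 mesothelial markers was 623 to 719 CPM in DBL, 95.2 to 324 CPM in TDonly and 137 to 204 CPM in ColGFP. Epithelial markers summed to 6066 to 6689 CPM in DBL, 9426 to 12580 CPM in TDonly and 3348 to 9805 CPM in ColGFP. Leukocyte markers summed to 1284 to 1470 CPM in DBL, 1967 to 2771 CPM in TDonly and 906 to 2373 CPM in ColGFP. Lyz2 made up most of the leukocyte sum in every library. It had 1253 to 1357 CPM in DBL, 1890 to 2529 in TDonly and 772 to 2258 in ColGFP. Ptprc, by contrast, had 5.22, 30.4 and 33.2 CPM in the DBL libraries, a spread that the sum hides. No marker was at 0 in any library. Several of these sums differed between the populations compared below, and the part of such mixtures in the Hox differences was not tested. In such bulk samples, fewer cells of a type and less RNA per cell cannot be told apart.

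The Hox message of all 3 populations was almost wholly Hoxa and Hoxb message. The 9 Hoxa genes summed to 83.8 ± 12.4 CPM in DBL, 73.8 ± 8.99 CPM in TDonly and 153.8 ± 16.0 CPM in ColGFP (SD, n = 3 each, as for every ± below). The 10 Hoxb genes summed to 67.2 ± 5.23 CPM in DBL, 48.4 ± 2.69 CPM in TDonly and 94.7 ± 9.90 CPM in ColGFP. For both clusters every ColGFP library was above every DBL and TDonly library, and for Hoxb the DBL libraries were also above all TDonly libraries. The 6 Hoxc genes summed to 1.02 ± 0.121 CPM in DBL, 0.177 ± 0.0222 CPM in TDonly and 1.25 ± 0.654 CPM in ColGFP. The 6 Hoxd genes together had 19, 7 and 8 counts in the DBL libraries, 13, 24 and 12 counts in TDonly and 4, 4 and 7 counts in ColGFP. The Hoxd cluster was thus the only cluster whose lowest sum was in ColGFP, on counts so few that DBL and ColGFP overlapped.

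By position, nearly all of the signal was anterior or central. The 11 anterior rows summed to 86.5 ± 7.43 CPM in DBL, 61.8 ± 3.41 CPM in TDonly and 114.8 ± 12 CPM in ColGFP. The 11 central rows summed to 65.8 ± 10.2 CPM in DBL, 60.9 ± 8.86 CPM in TDonly and 134.9 ± 13.9 CPM in ColGFP. The 9 posterior rows held 8, 2 and 4 counts in DBL, 3, 13 and 10 counts in TDonly and 4, 6 and 7 counts in ColGFP. DBL stood at 75.4% of the ColGFP mean for the anterior sum and at 48.7% for the central sum, while TDonly stood at 53.8% and 45.1%. No test was made of these sums.

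**Figure D1:**
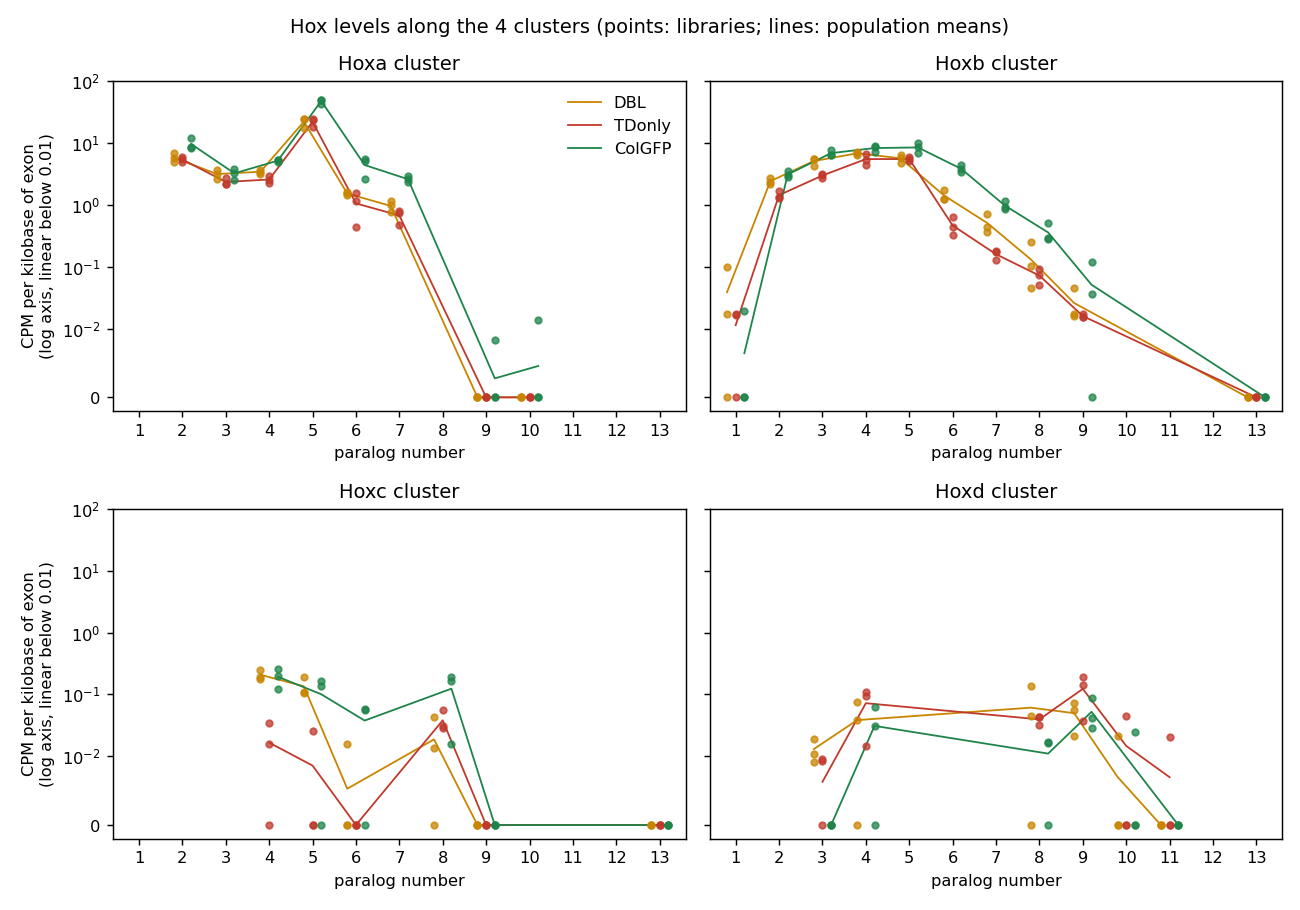
Level of 30 of the 31 Hox genes, in CPM per kilobase of exon on a log axis that is linear below 0.01, against paralog number, with 1 panel per cluster; points are libraries and lines join the means of DBL, TDonly and ColGFP. Apart from Hoxb1, which is low, Hoxa and Hoxb means lie above 0.1 CPM per kb up to paralog 7 in every population and fall off beyond it, while Hoxc and Hoxd stay low throughout.

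Dividing by exon length allows genes to be compared. Hoxa5 was the highest Hox gene of each population, at 22.1 ± 4.07 CPM per kb in DBL, 21.9 ± 3.60 in TDonly and 47.6 ± 3.78 in ColGFP, and its libraries did not overlap those of the next gene in any of them. In DBL, Hoxb4 (6.79 ± 0.477 CPM per kb), Hoxa2 (5.79 ± 1.03), Hoxb5 (5.64 ± 0.882) and Hoxb3 (5.08 ± 0.767) came next, and each overlapped its neighbour in this order. In TDonly the next genes were Hoxb5 (5.49 ± 0.440), Hoxb4 (5.48 ± 1.13) and Hoxa2 (5.40 ± 0.422), which overlapped, and Hoxb3 was lower at 2.98 ± 0.205 CPM per kb. In ColGFP, Hoxa2 (9.63 ± 2.06), Hoxb5 (8.45 ± 1.44), Hoxb4 (8.26 ± 0.881) and Hoxb3 (6.84 ± 0.752 CPM per kb) followed, again overlapping their neighbours. Hoxa4 was sixth in each population, at 3.42 ± 0.247 CPM per kb in DBL, 2.56 ± 0.350 in TDonly and 5.17 ± 0.209 in ColGFP. Hoxb7, Hoxb8 and Hoxc4 averaged below 1 CPM per kb in all 3 populations. The length used is the union of all annotated exons. With the longest transcript instead, Hoxa3 stood at 7.29 in place of 3.14 CPM per kb in DBL. It stood at 5.43 in place of 2.34 in TDonly and at 7.48 in place of 3.22 in ColGFP. Hoxb3 then stood at 9.115 in place of 6.84 in ColGFP, above Hoxb5 and Hoxb4, and Hoxa4 was at rank 7 in each population. The order below Hoxa5 thus depends on the length chosen.

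Of the 31 genes, 15 passed the filter on low counts (about 0.432 CPM in at least 3 libraries) and were tested along with 15550 genes in all: 7 Hoxa genes, Hoxb2 to Hoxb8 and Hoxc4. Among them 11 were above that level in all 9 libraries. Hoxa6, Hoxb7, Hoxb8 and Hoxc4 fell below it in some libraries. Hoxb7 and Hoxc4 did so in all TDonly libraries, and Hoxb8 in 2 DBL and all TDonly libraries. Hoxb7 and Hoxc4 thus passed only through DBL and ColGFP libraries, where they are high. Hoxb8 passed through all 3 ColGFP libraries and 1 DBL library. That these 3 genes are lower in TDonly is therefore not independent of the filter. The same holds for the lower level of Hoxb8 in DBL than in ColGFP. Of the 16 others, Hoxb13, Hoxc9 and Hoxc13 had no count in any library, which allows up to 0.114 to 0.181 CPM in a library by counting error, and the other 13 had at most 13 counts in a library. Fitted without the filter, none of these 13 passed at an adjusted p of 0.05 in any comparison (edgeR), while Hoxc5, Hoxc6 and Hoxc8 had an unadjusted p under 0.05 in at least 1.

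The comparison of DBL with TDonly asks how Foxf1-reporter cells that also carry the collagen reporter differ from those without it. All 6 Hox genes that passed were higher in DBL and 0 were lower (edgeR quasi-likelihood test, Benjamini-Hochberg adjusted p under 0.05). Of all genes tested, 17.3% were called higher and 12.6% lower. Among the 6 were the 4 Hoxb genes Hoxb2, Hoxb3, Hoxb6 and Hoxb7, and Hoxc4. Of these, Hoxb7 and Hoxc4 had passed the filter only through DBL and ColGFP libraries. The median log2 fold change of the 15 was 0.53, against -0.04 for all genes tested, and DBL libraries were above every TDonly library for 7 of the 15 and below every TDonly library for 0, against 23.8% and 23.2% of all genes. At an unadjusted p under 0.05, 8 were higher and 0 lower, against 21.5% and 19.2% of all genes. DESeq2 and limma-voom also called 0 lower.

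Hoxb3, a patterning gene of the hindbrain and pharyngeal arches, had 17.8, 23.5 and 23.5 CPM in DBL libraries and 13.2, 13.1 and 11.7 CPM in TDonly. The groups did not overlap, and the log2 fold change was 0.77 ± 0.140 (SE; adjusted p = 0.00253). Hoxb2, its anterior neighbour, had 8.16, 7.66 and 9.41 CPM in DBL and 5.73, 4.57 and 4.70 CPM in TDonly. It was likewise higher in each DBL library than in any TDonly library, by 0.75 ± 0.163 on the log2 scale (adjusted p = 0.00675). Of the exon bases of Hoxb3, 52.9% are shared with the antisense transcript Hoxb3os, and 27.3% of those of Hoxb2. Hoxb3os has no row of its own here, and without the strand setting of the counting its reads cannot be told apart from theirs.

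Hoxb6, a central gene, showed a wider gap, with 2.44, 2.48 and 3.43 CPM in DBL and 0.857, 0.641 and 1.23 CPM in TDonly. This was 3.06-fold higher in DBL (log2 1.61 ± 0.278, adjusted p = 0.00191), and Hoxb6 shares no exon base with another gene. Hoxb7, next to it, had 1.11, 0.676 and 0.565 CPM in DBL and 0.273, 0.200 and 0.264 CPM in TDonly. The low TDonly values rest on 5 to 7 counts a library, and the log2 fold change was 1.66 ± 0.401 (adjusted p = 0.0116); within the higher range of core numbers it was 1.44 with an adjusted p of 0.0724.

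Hoxc4, a homeodomain gene with a known role in B lymphocytes, had the largest difference on the fewest reads. It had 12, 11 and 16 counts in the DBL libraries and 0, 1 and 2 counts in TDonly. All DBL libraries lay far above all TDonly libraries, and the log2 fold change was 3.53 ± 0.708 (adjusted p = 0.0044). The pooled counts were 39 in DBL and 3 in TDonly, and their ratio, scaled by library size, was 13 with a 95% interval of 4.14 to 65.9 for counting error only. Hoxc5, its neighbour, was under the filter with 9, 13 and 8 counts in DBL and 0, 2 and 0 counts in TDonly, and fitted without the filter it had a log2 fold change of 3.73 ± 1.28 (adjusted p = 0.0609). It passed the filter and the test within the higher range of core numbers (3.31, adjusted p = 0.0153) and without ColGFP replicate 1 (3.73, adjusted p = 0.0112). No TDonly library of Hoxc5 was above the filter level, so it entered these fits only through DBL and ColGFP libraries. Its lower level in TDonly is not independent of the filter there. Hoxc5 missed the threshold without DBL replicate 1, DBL replicate 4, any 1 of the TDonly libraries or ColGFP replicate 2, with adjusted p-values of 0.061 to 0.135.

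Hoxa5 was not called between DBL and TDonly. It had 32.6, 45.9 and 45.7 CPM in DBL and 33.4, 45.3 and 44.8 CPM in TDonly. The libraries of both populations interleaved, with replicate 1 the lowest of each, and the log2 fold change was 0.01 with a 95% interval of -0.36 to 0.37. Hoxb5, its paralog in the Hoxb cluster and a gene of airway branching, had 13.1, 15.9 and 18.1 CPM in DBL and 13.99, 16.4 and 15.5 CPM in TDonly, a log2 fold change of 0.04 with an interval of -0.32 to 0.40. Hoxa2, a gene of the second pharyngeal arch, had 0.10 with an interval of -0.32 to 0.51. The other 6 uncalled genes, Hoxa3, Hoxa4, Hoxa6, Hoxa7, Hoxb4 and Hoxb8, had log2 values of 0.31 to 0.86. Within the higher range of core numbers 7 of the 15 passed, all higher in DBL: Hoxb7 was lost, and Hoxa3 (0.54, adjusted p = 0.00452) and Hoxb4 (0.48, adjusted p = 0.0074) were gained. There 23.6% of all genes tested were called higher.

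**Figure D2:**
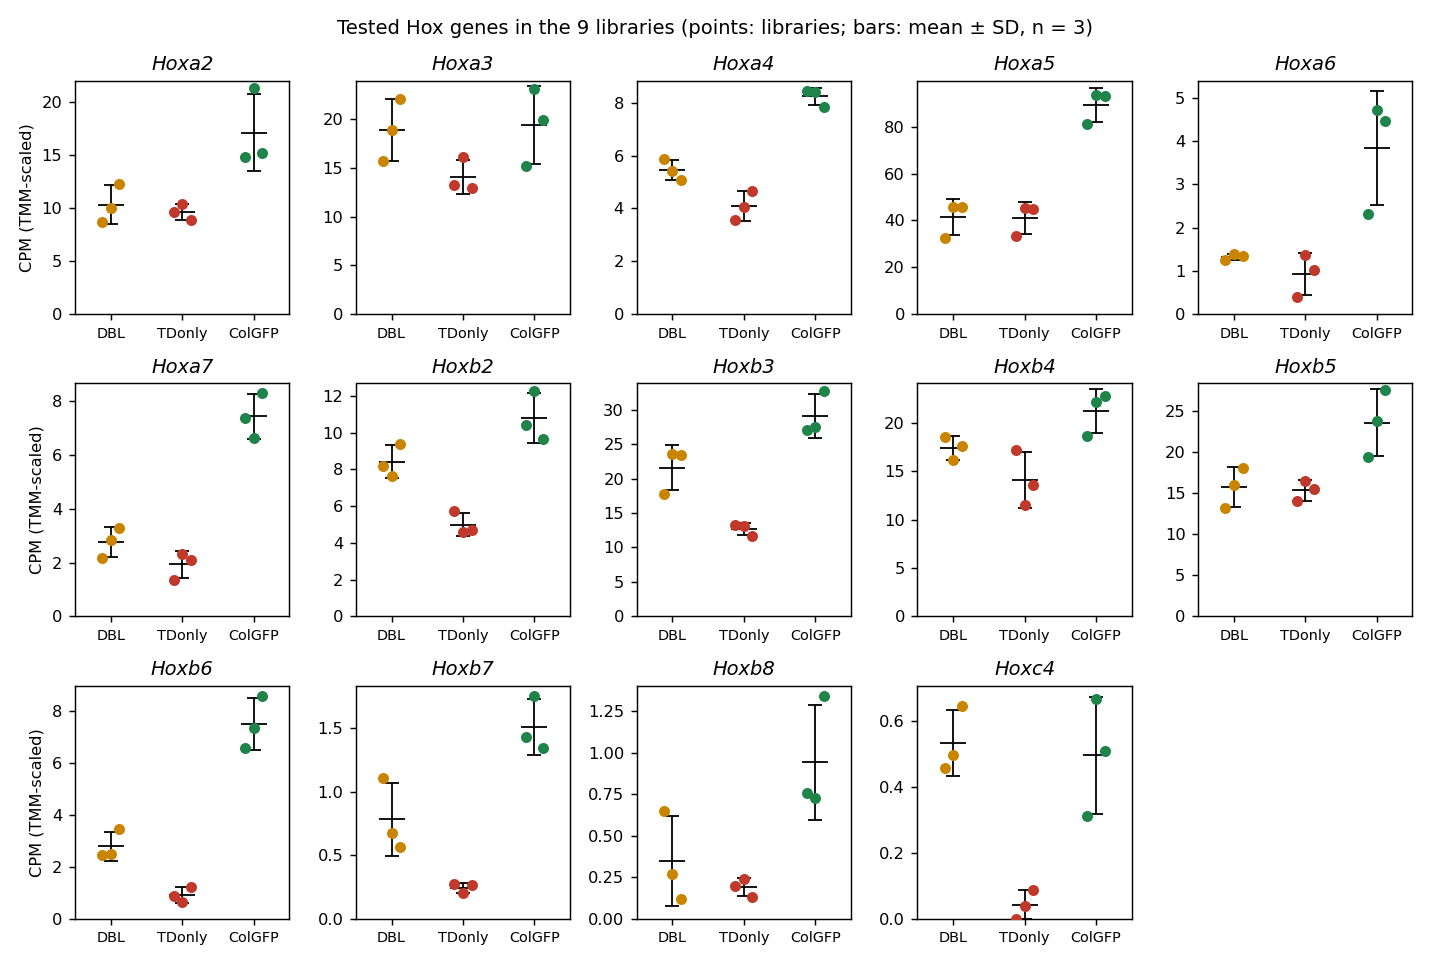
CPM with TMM factors of 14 of the 15 tested Hox genes in the 9 libraries, in the order DBL, TDonly and ColGFP; points are libraries, bars are mean ± SD (n = 3), and each panel has its own axis from 0. Hoxa5 shows DBL and TDonly at the same level, under ColGFP, while Hoxb2 and Hoxb3 show DBL between the other populations and Hoxc4 shows TDonly near 0.

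The comparison of DBL with ColGFP asks how collagen-expressing cells that also carry the Foxf1 reporter differ from those without it. Here 0 Hox genes were higher and 8 were lower in DBL, when 8.04% of all genes tested were called higher and 6.47% lower. Among them were Hoxa2, Hoxa4, Hoxa5, Hoxa6, Hoxa7, Hoxb5 and Hoxb6, so that 6 of the 8 lie in the Hoxa cluster and 2 in the Hoxb cluster. The median log2 fold change of the 15 was -0.73, against -0.0032 for all genes tested. DBL libraries were below every ColGFP library for 13 of the 15 genes, against 16.4% of all genes; the exceptions were Hoxa3 and Hoxc4. At an unadjusted p under 0.05, 0 were higher and 11 lower, against 13.9% and 13% of all genes. Hoxb8, among these 11 and the 13 above, passed the filter through all 3 ColGFP libraries but only 1 DBL library. DESeq2 and limma-voom also called 0 higher.

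Hoxa5 had 32.6, 45.9 and 45.7 CPM in DBL, against 81.2, 93.6 and 93.3 CPM in ColGFP. The groups were far apart, and DBL was at 0.463 times the ColGFP level (log2 -1.11 ± 0.163, adjusted p = 0.00174). Hoxa7, a central gene, had 2.17, 2.84 and 3.27 CPM in DBL and 7.38, 6.65 and 8.32 CPM in ColGFP. Its highest DBL library was under its lowest ColGFP library, with a log2 fold change of -1.43 ± 0.244 (adjusted p = 0.00391), and 20.4% of its exon bases are shared with the antisense transcript Hoxaas3. Hoxa6, which lies between them, had 1.26, 1.40 and 1.33 CPM in DBL and 2.33, 4.72 and 4.48 CPM in ColGFP. The DBL libraries were close together and the ColGFP libraries spread widely, so that its log2 fold change of -1.52 ± 0.422 had an adjusted p of only 0.0397.

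Hoxb6 had 2.44, 2.48 and 3.43 CPM in DBL and 6.57, 7.32 and 8.55 CPM in ColGFP. It was thus lower in DBL than in ColGFP without overlap (log2 -1.42 ± 0.253, adjusted p = 0.00484) and higher in DBL than in TDonly.

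Hoxa2 had 8.62, 9.96 and 12.2 CPM in DBL and 14.8, 21.3 and 15.2 CPM in ColGFP (log2 -0.73 ± 0.184, adjusted p = 0.0261). Hoxa4 had 5.87, 5.41 and 5.09 CPM in DBL and 8.45, 8.41 and 7.85 CPM in ColGFP (log2 -0.59 ± 0.155, adjusted p = 0.0312). Hoxb5 had 13.1, 15.9 and 18.1 CPM in DBL and 19.4, 23.8 and 27.4 CPM in ColGFP (log2 -0.58 ± 0.161, adjusted p = 0.0394). None of these 3 overlapped between the groups, and all 3 lay close to the threshold. The count of 8 lower genes rested on them and on Hoxa6: it was 5 without DBL replicate 1, 4 without DBL replicate 3, 5 without DBL replicate 4, 4 without ColGFP replicate 2 and 5 without ColGFP replicate 3. Hoxa5, Hoxa7 and Hoxb6 passed whichever of the 9 libraries was left out.

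Of the 7 uncalled genes, Hoxb3 had a log2 fold change of -0.43 (adjusted p = 0.0708), Hoxb2 of -0.36, Hoxb4 of -0.28, Hoxb7 of -0.93 and Hoxb8 of -1.42. The last 2 are low in counts, with standard errors of 0.350 and 0.572. Hoxa3, a gene of thymus and parathyroid development, had 15.7, 18.8 and 22.1 CPM in DBL and 15.2, 23.1 and 19.96 CPM in ColGFP, a log2 fold change of -0.04 with an interval of -0.45 to 0.37. Hoxc4 had 12, 11 and 16 counts in DBL and 7, 11 and 11 counts in ColGFP, and its interval of -1.04 to 1.28 was wide. Within the higher range of core numbers 11 of the 15 were lower in DBL, with Hoxb3, Hoxb4 and Hoxb8 added, where 12.6% of all genes were called lower. Hoxb8 had only 6 and 3 counts in the DBL libraries of that range and passed the filter there through ColGFP libraries. Its lower level in DBL is therefore not independent of the filter.

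The comparison of TDonly with ColGFP sets the 2 single-reporter populations against each other. Of the 15 genes, 0 were higher and 14 were lower in TDonly, when 21.6% of all genes tested were called higher and 24% lower. The 14 include Hoxb7, Hoxb8 and Hoxc4, which passed the filter only through DBL and ColGFP libraries. Their fall is not independent of the filter, and the counts and median below include them. Hoxa3 alone missed the threshold (log2 -0.46 ± 0.184, adjusted p = 0.0678) and passed within the higher range of core numbers (-0.59, adjusted p = 0.0017). The median log2 fold change was -1.2, against 0.02 for all genes tested, and TDonly libraries were below every ColGFP library for 14 of the 15, against 28.8% of all genes. At an unadjusted p under 0.05, 0 were higher and 15 lower, against 25.6% and 27.2% of all genes, and DESeq2 and limma-voom also called 0 higher. Within the higher range of core numbers all 15 were lower, where 29.8% of all genes were called lower and 26.8% higher.

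The largest drops were in Hoxb6 to Hoxb8 and in Hoxc4. Of these, Hoxb7, Hoxb8 and Hoxc4 had passed the filter only through DBL and ColGFP libraries. Hoxb6 had 0.857, 0.641 and 1.23 CPM in TDonly and 6.57, 7.32 and 8.55 CPM in ColGFP, an 8.22-fold lower level in TDonly (log2 -3.04 ± 0.279, adjusted p = 2.07e-05). Hoxb7 had 0.273, 0.200 and 0.264 CPM in TDonly and 1.43, 1.75 and 1.34 CPM in ColGFP (log2 -2.59 ± 0.394, adjusted p = 0.000498). Both genes were separated by a wide gap. Hoxb8, which is known from haematopoietic cells and the nervous system, had 5, 6 and 3 counts in TDonly and 17, 12 and 29 counts in ColGFP. Its log2 fold change of -2.28 ± 0.615 (adjusted p = 0.0132) became -1.96 with an adjusted p of 0.0549 without ColGFP replicate 3, which held the most counts. Hoxc4 had 0, 1 and 2 counts in TDonly and 7, 11 and 11 counts in ColGFP, a log2 fold change of -3.41 ± 0.724 (adjusted p = 0.00377), and the ratio of the pooled counts, 29 in ColGFP over 3 in TDonly, was 11.7 when scaled by library size, with a counting interval of 3.63 to 60.1.

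In the Hoxa cluster, Hoxa6 had 0.390, 1.36 and 1.01 CPM in TDonly and 2.33, 4.72 and 4.48 CPM in ColGFP (log2 -2.05 ± 0.436), and Hoxa7 had 1.36, 2.32 and 2.11 CPM in TDonly and 7.38, 6.65 and 8.32 CPM in ColGFP (log2 -1.95 ± 0.251). Both genes were about 4-fold lower in TDonly and did not overlap. Hoxa5 had 33.4, 45.3 and 44.8 CPM in TDonly and 81.2, 93.6 and 93.3 CPM in ColGFP (log2 -1.12 ± 0.163, adjusted p = 0.000379), and Hoxa2 and Hoxa4 had log2 fold changes of -0.83 ± 0.184 and -1.01 ± 0.158. In the Hoxb cluster, Hoxb2 fell by 1.11, Hoxb3 by 1.2, Hoxb4 by 0.59 and Hoxb5, a central gene, by 0.62 on the log2 scale. Hoxb4, known from blood stem cells, was 17.2, 11.5 and 13.5 CPM in TDonly against 18.6, 22.2 and 22.8 CPM in ColGFP; its difference was -0.11 between the replicate 1 libraries and -0.88 within the higher range of core numbers.

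**Figure D3:**
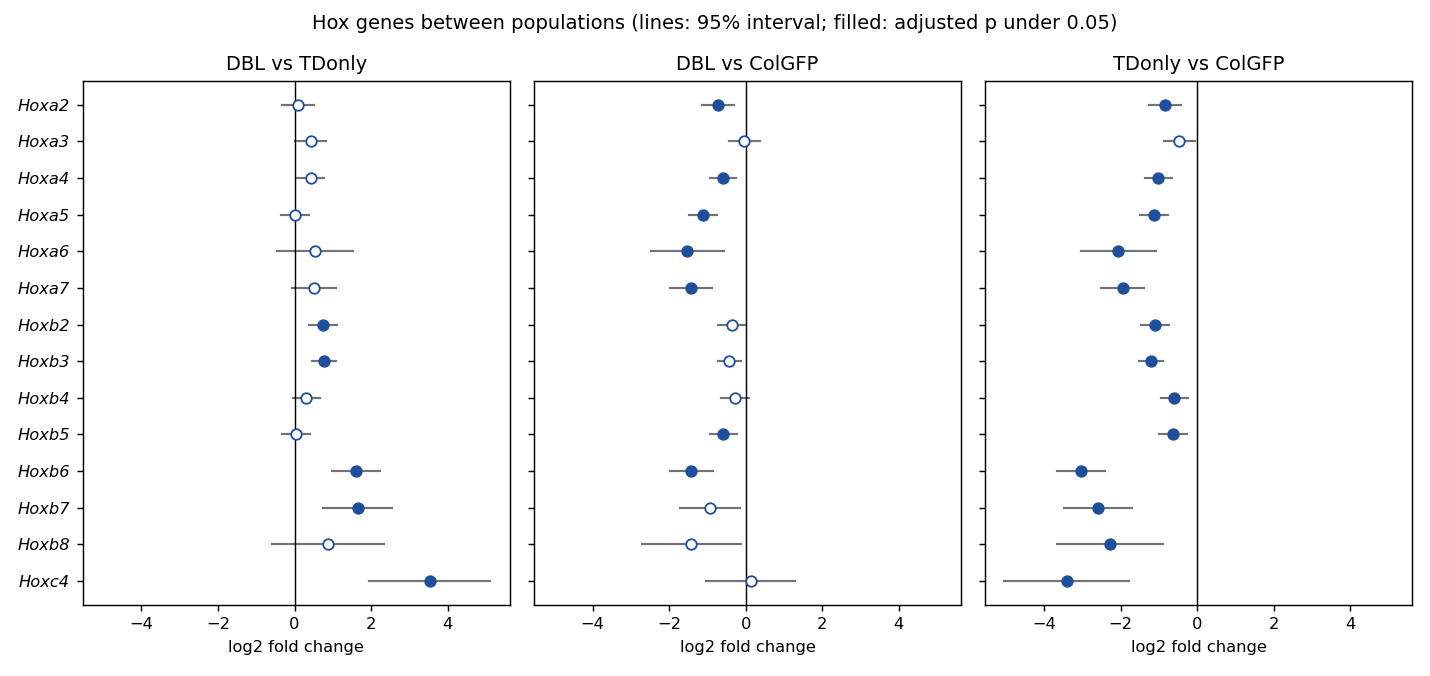
Log2 fold changes of 14 of the 15 tested Hox genes, ordered by cluster and paralog, in DBL vs TDonly, DBL vs ColGFP and TDonly vs ColGFP; lines are 95% intervals, filled points have an adjusted p under 0.05, and a positive value means higher in the population named first. All points shown are above 0 against TDonly in the left panel and below 0 in the right panel, and all but Hoxc4 are below 0 in the middle panel; scaled by library totals, Hoxa5 and Hoxb5 cross 0 in the left panel and Hoxa3 in the middle panel.

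The 3 comparisons share libraries, so their fold changes are not independent, and the same values can be read as the place of DBL on the way from the TDonly mean (0%) to the ColGFP mean (100%). For the 14 genes lower in TDonly than in ColGFP the place of DBL ran from 0.482% to 108% with a median of 27.1%. Hoxa5 (0.482%), Hoxb5 (5.13%), Hoxa2 (9.13%), Hoxa6 (14%) and Hoxa7 (15.0%) were at the TDonly end. Hoxb8 stood at 20.9%, Hoxb6 at 28.5% and Hoxa4 at 33.0%. Hoxb7 (42.5%), Hoxb4 (47.1%), Hoxb3 (54.5%) and Hoxb2 (58.9%) were near the middle, and Hoxc4 (108%) was at the ColGFP end. Among the Hoxb genes the anterior members Hoxb2 to Hoxb4 had the highest places over all libraries and within the higher range of core numbers, but not between the replicate 1 libraries. These places are a description without a test.

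Within the higher range of core numbers Hoxa5 stood at 1.54%, Hoxb5 at 10.9%, Hoxa2 at 17.5%, Hoxb3 at 62.7%, Hoxb2 at 61.6% and Hoxc4 at 97.0%. Between the 3 replicate 1 libraries Hoxa5 stood at -1.67%, Hoxb5 at -15.4%, Hoxa2 at -18.8%, Hoxb3 at 33.6% and Hoxb2 at 51.8%. Hoxa5, Hoxb5 and Hoxa2 were thus lower in this order than Hoxb2 and Hoxb3 in both sets. Other genes moved more: Hoxb8, a gene of few counts, stood at 1.14% in the higher range and at 80.2% in the replicate 1 libraries. In the same order Hoxb7 stood at 29.6% and 71.9%, Hoxb4 at 43.6% and 97.5%, and Hoxc4 at 97.0% and 146%. Hoxa6, at the TDonly end over all libraries, stood at 5.22% and 44.9%. In the replicate 1 libraries Hoxb4, Hoxb7, Hoxb8 and Hoxc4 thus lay above Hoxb2 and Hoxb3, and Hoxa6 and Hoxa4 (47.4%) above Hoxb3.

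**Figure D4:**
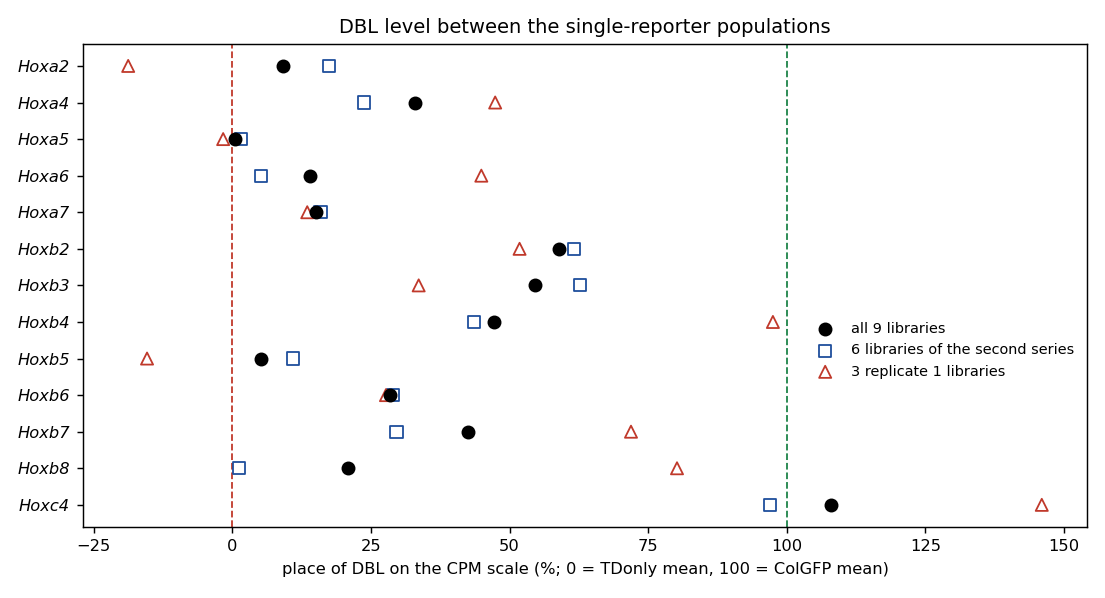
Place of DBL between the TDonly mean (0%, dashed) and the ColGFP mean (100%, dashed) on the CPM scale for 13 of the 14 Hox genes lower in TDonly than in ColGFP; filled points use all 9 libraries, and the other symbols the 6 libraries of the higher core numbers and the 3 replicate 1 libraries. Hoxa5 lies near 0% with each set of libraries, and Hoxb5 and Hoxa2 lie between -18.8% and 17.5%. Hoxb2 and Hoxb3 lie between 33.6% and 62.7%, and Hoxb8 and Hoxb4 spread widely between the sets.

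RefSeq promoter windows, from 250 bases before to 50 after a gene's start on GRCm38.p6, were listed for 17 of the 31 members. Those of the Hoxa genes at the TDonly end of this order over all libraries are shown with that of Hoxc4 at its other end. This choice was made from these values, and Hoxb5 is named only. Capitals mark 4 motifs searched on both strands: TGATNNAT (Pbx with Hox), TGACAG (Meis), TAATTA (homeodomain) and AGGTCA (retinoic acid receptor). The windows are Hoxa2 at chr6:52164782-52165081, Hoxa5 at chr6:52204538-52204837, Hoxa6 at chr6:52208623-52208922 and Hoxa7 at chr6:52218524-52218823, all on the minus strand, and Hoxc4 at chr15:103034145-103034444 on the plus strand, each printed 5′ to 3′ along its gene. The Hoxa7 and Hoxc4 windows lie inside the gene spans of GENCODE.
Hoxa2: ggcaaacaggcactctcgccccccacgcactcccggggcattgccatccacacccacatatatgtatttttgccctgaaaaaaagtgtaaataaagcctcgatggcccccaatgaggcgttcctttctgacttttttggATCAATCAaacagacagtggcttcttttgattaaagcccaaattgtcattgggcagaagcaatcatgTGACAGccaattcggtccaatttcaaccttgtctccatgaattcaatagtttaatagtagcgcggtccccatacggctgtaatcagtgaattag
Hoxa5: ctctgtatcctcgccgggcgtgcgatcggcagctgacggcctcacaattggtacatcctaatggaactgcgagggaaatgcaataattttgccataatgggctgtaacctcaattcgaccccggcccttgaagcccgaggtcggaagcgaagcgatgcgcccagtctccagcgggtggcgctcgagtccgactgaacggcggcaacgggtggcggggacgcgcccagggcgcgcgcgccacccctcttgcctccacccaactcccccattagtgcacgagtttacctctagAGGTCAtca
Hoxa6: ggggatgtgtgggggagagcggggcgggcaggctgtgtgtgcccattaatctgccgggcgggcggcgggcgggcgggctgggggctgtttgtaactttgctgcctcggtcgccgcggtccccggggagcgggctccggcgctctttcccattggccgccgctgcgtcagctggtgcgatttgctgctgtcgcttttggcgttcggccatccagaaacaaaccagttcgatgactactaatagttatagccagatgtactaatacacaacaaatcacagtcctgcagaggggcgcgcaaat
Hoxa7: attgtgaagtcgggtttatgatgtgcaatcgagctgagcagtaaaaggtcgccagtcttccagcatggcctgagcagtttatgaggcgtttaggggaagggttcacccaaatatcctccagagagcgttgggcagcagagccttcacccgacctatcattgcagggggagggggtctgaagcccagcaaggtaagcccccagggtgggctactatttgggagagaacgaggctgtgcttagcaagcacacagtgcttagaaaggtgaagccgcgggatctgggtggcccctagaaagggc
Hoxc4: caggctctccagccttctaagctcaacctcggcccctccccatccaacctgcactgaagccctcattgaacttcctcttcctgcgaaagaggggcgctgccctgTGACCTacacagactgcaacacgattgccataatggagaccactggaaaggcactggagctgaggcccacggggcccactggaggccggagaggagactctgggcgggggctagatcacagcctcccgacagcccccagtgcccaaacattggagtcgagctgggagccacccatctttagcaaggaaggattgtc

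Hoxa2 held a Pbx with Hox match and a Meis match, Hoxa5 and Hoxc4 an AGGTCA match each, and Hoxa6 and Hoxa7 none. The Pbx with Hox motif was in 8.85% of all 32851 promoter windows, the Meis motif in 19.2%, the homeodomain motif in 5.29% and AGGTCA in 16.3%. Of the 19 windows of Hox members, 4, 2, 2 and 7 held these motifs in the same order. Hoxa5 had 29 CpG dinucleotides and Hoxa6 had 26, while Hoxa2, Hoxa7 and Hoxc4 had 9 each, and the median of all windows was 7. A match is a description of letters, not a site.

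The TALE partners of Hox proteins were split in both comparisons with TDonly. Of 8 tested, 3 were higher in DBL than in TDonly (Meis3 and Pknox2 among them) and 3 lower (Meis2, Pbx3 and Pbx2). Their median log2 fold change was -0.06, against -0.04 for all genes. Of all genes, 17.3% were called higher and 12.6% lower there. The shares were 8.04% and 6.47% in DBL vs ColGFP and 21.6% and 24% in TDonly vs ColGFP. Pknox2 had 41.9, 36.9 and 40.1 CPM in DBL, 27.1, 23.3 and 22.0 CPM in TDonly and 68.7, 60.3 and 66.2 CPM in ColGFP. It lay between the other populations without overlap, with a log2 fold change of 0.71 ± 0.106 in DBL vs TDonly (adjusted p = 0.000857) and -0.72 ± 0.105 in DBL vs ColGFP (adjusted p = 0.00174). Meis3 was 8.74 ± 0.641 CPM in DBL, 2.31 ± 0.448 CPM in TDonly and 12.3 ± 1.78 CPM in ColGFP, and only its differences from TDonly passed. Against ColGFP, DBL had 0 TALE genes higher and 2 lower, and TDonly had 4 higher, with Meis2 (0.89), Pbx2 (0.63) and Pknox1 (0.36) among them, and 3 lower, among them Pknox2 (-1.43) and Meis3 (-2.41). Meis2, at 45.9 ± 2.80 CPM in DBL, 66.4 ± 4.99 CPM in TDonly and 36.0 ± 4.04 CPM in ColGFP, had its highest mean in TDonly and its lowest in ColGFP.

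Of 26 non-coding RNAs and Evx genes of the clusters, 3 had a row and 2 were tested. Both lie in the Hoxa cluster. Mira had 1.53, 1.89 and 2.02 CPM in DBL, 1.72, 2.04 and 1.19 CPM in TDonly and 5.01, 4.84 and 3.93 CPM in ColGFP. It was lower in DBL than in ColGFP (log2 -1.34 ± 0.255, adjusted p = 0.00684) and in TDonly than in ColGFP (-1.47 ± 0.256, adjusted p = 0.00116), with DBL and TDonly overlapping. Hoxaas3, under the row name 2700086A05Rik, had 16, 6 and 10 counts in DBL, 11, 6 and 5 counts in TDonly and 35, 34 and 28 counts in ColGFP, and was lower than ColGFP by log2 -1.90 in DBL and -2.43 in TDonly. It overlaps Hoxa7 and Hoxa3 on the other strand, so its reads and theirs cannot be told apart.

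Retinoic acid switches on anterior Hox genes in the embryo. Its list of 14 tested genes had 3 higher and 2 lower in DBL vs TDonly, with a median of 0.33 against -0.04 for all genes. All genes had 17.3% called higher and 12.6% lower in DBL vs TDonly. They had 8.04% and 6.47% in DBL vs ColGFP and 21.6% and 24% in TDonly vs ColGFP. Aldh1a2, which makes retinoic acid, had 149, 117 and 124 CPM in DBL, 7.99, 32.0 and 32.2 CPM in TDonly and 11.8, 45.4 and 31.6 CPM in ColGFP. It was higher in DBL than in TDonly (log2 2.43 ± 0.554, adjusted p = 0.00862) and than in ColGFP (2.14 ± 0.549, adjusted p = 0.0287), as was Aldh1a3 (3.56 and 1.89). The 7 mesothelial markers also had their highest sums in DBL, and their part in this was not tested. Cyp26b1, which breaks retinoic acid down, fell by 1.52 on the log2 scale in DBL vs TDonly and Rara, a retinoic acid receptor, by 0.50. Against ColGFP, DBL had 3 higher (with Cyp26b1 at 1.45) and 1 lower (Aldh1a1, -1.51), and TDonly had 2 higher (Cyp26b1 2.98, Rara 0.70) and 5 lower, among them Aldh1a1 (-1.97) and Rxra (-0.32).

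Other regulators of Hox genes had members called in both directions between TDonly and ColGFP, as did all genes tested. The Polycomb list, whose complexes keep Hox genes silent, had 2 of 26 higher and 3 lower in DBL vs TDonly. It had 0 and 2 in DBL vs ColGFP and 6 and 8 in TDonly vs ColGFP. The 3 medians were 0.05, -0.11 and -0.18, against -0.04, -0.0032 and 0.02 for all genes. Of all genes, 17.3% were called higher and 12.6% lower in DBL vs TDonly, and 8.04% and 6.47% in DBL vs ColGFP. In TDonly vs ColGFP the shares were 21.6% and 24%. The next lists are to be read against these shares too. In DBL vs TDonly Cbx6 (0.87) and Rbbp7 (0.44) were higher and Kdm6a (-0.34), Suz12 (-0.48) and Phc2 (-0.47) lower. Kdm6a is counted in the list although it encodes a demethylase that removes the Polycomb mark. It was also among the 6 higher in TDonly vs ColGFP (0.32). Cbx7 (-0.47) was among those lower in DBL than in ColGFP. In TDonly vs ColGFP, Suz12 (0.63), Eed (0.53) and Bmi1 (0.86) were higher and Cbx6 (-0.98), Rbbp7 (-0.62) and Cbx7 (-0.58) lower. The Trithorax list, whose complexes keep Hox genes active, had 1 of 10 higher (Psip1, 0.40) and 1 lower (Myst3, the row of Kat6a, -0.49) in DBL vs TDonly and 0 of either in DBL vs ColGFP. In TDonly vs ColGFP it had 4 higher, among them Myst3 (0.81), Brpf1 (0.50) and Men1 (0.35), and 1 lower (Psip1, -0.59). Of 4 tested Cdx and Gdf11 list members none passed in a comparison of DBL, and in TDonly vs ColGFP Nr6a1 (0.55) was higher and Egr2 (-1.70) lower.

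Homeobox genes outside the clusters moved in both directions. Of 24 tested, 8 were higher and 3 lower in DBL vs TDonly, with a median of -0.07 against -0.04 for all genes. Among all genes, 17.3% were called higher and 12.6% lower there. The shares were 8.04% and 6.47% in DBL vs ColGFP and 21.6% and 24% in TDonly vs ColGFP. Prrx1, a mesenchymal homeobox gene, was 139 ± 23.4 CPM in DBL, 12.1 ± 5.25 CPM in TDonly and 101 ± 28.1 CPM in ColGFP, and higher in DBL than in TDonly by 3.52 ± 0.357 on the log2 scale. Tshz2 (2.04) and Tshz3 (1.51) were also higher, and Hhex (-1.48), Zeb1 (-0.35) and Irx3 (-0.87) lower. Hhex, which is known from endothelium, was 12.4 ± 1.59 CPM in DBL, 34.6 ± 3.19 CPM in TDonly and 2.54 ± 0.784 CPM in ColGFP. In DBL vs ColGFP 3 were higher, Hhex (2.28), Zeb1 (0.52) and Nkx6-1 (2.40), and 0 lower. In TDonly vs ColGFP 7 were higher, among them Hhex (3.76), Zeb1 (0.88) and Meox1 (1.43), and 8 lower, among them Tshz3 (-1.49), Tshz2 (-1.71) and Prrx1 (-3.06).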

How the data were processed

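RNA-seq counts of 9 libraries, 3 per population, were used; groups and replicate numbers come from the sample titles, and columns were matched through the sequencing core numbers of the labels. The authors deposited unnormalised counts of reads for each gene symbol, made by trimming with cutadapt, aligning with TopHat to mm10 and counting with HTSeq, per the submitters' processing notes, without versions. Per the series design text, a ribogone step removed ribosomal RNA. The labels' protocols describe RNA of flash-frozen lungs and a TruSeq kit; the sources used here do not say how this applies to sorted cells, nor which strand setting and annotation served for counting. Overlapping and antisense genes are therefore uncertain. Another 3 columns could be matched to no sample and were set aside.

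The filterByExpr filter of edgeR, set to a minimum count of 10, left 15550 of 19348 genes. The quasi-likelihood fit of edgeR 4.0.16 (in R 4.3.3, beside limma 3.58.1) took all 9 libraries with 1 mean for each population, TMM factors and 6 residual degrees of freedom. Each of the 3 contrasts had a two-sided test, Benjamini-Hochberg adjusted across the 15550 genes, with calls at 0.05. The fit was tested on simulated data. A standard error is the log2 fold change divided by the square root of the F statistic. Nothing says that replicates came from separate animals, so p-values measure the spread between these libraries, which may be technical. Totals of 17820969 to 26147475 counts limit the precision of genes with few counts.

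Lengths are unions of exons in GENCODE M21 (GRCm38), and promoter windows are those of RefSeq GRCm38.p6. Of 176 entries in the other gene lists, 150 had a row, 4 of them through a synonym. Values per library are given for each Hox gene that passed in any contrast and for the 6 highest per kilobase; of each other list, up to 3 genes per direction and contrast are named by adjusted p. The Hox genes and lists were chosen with earlier results of these data known. Some genes that met these rules are not reported here. Alternatives were other scaling factors, filters, DESeq2 1.42.0, limma-voom, fewer groups or libraries, core numbers or the replicate number as covariates, the longest transcript as length, and leaving out each library.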

Additional observations from a re-analysis of the deposited data

How the results depend on the processing

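Of 916 values of single Hox genes under the alternatives, 848 kept their direction and their side of the threshold, 33 lost a call, 16 gained one and 19 changed sign; none of those 19 was a called difference. The counts of Hox genes higher in DBL than in TDonly (6), lower in DBL than in ColGFP (8) and lower in TDonly than in ColGFP (14) became 1, 3 and 5 with a filter of 10 CPM in 3 libraries, by which fewer Hox genes were tested. With library totals as the scale, which moved the median of all genes by -0.088 in DBL vs TDonly, 0.060 in DBL vs ColGFP and 0.15 in TDonly vs ColGFP (to -0.13, 0.057 and 0.164), DBL had 5 genes lower than ColGFP. Within the higher range of core numbers 4512 genes in all were called in DBL vs ColGFP, against 2256. Leaving out each library gave 6 to 8, 4 to 8 and 13 to 16 Hox genes in the same order, and 3479 to 5117, 1468 to 2761 and 5702 to 7361 genes in all, with 1478 without ColGFP replicate 2 and 1468 without ColGFP replicate 3.

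With the replicate number as a block, DBL had 5 genes higher than TDonly and 5 lower than ColGFP, and TDonly had 15 lower than ColGFP; 3594, 1581 and 6483 genes in all were called, against 4657, 2256 and 7082. Deviations from the group means correlated between same-numbered libraries at 0.527 and 0.232 (DBL with TDonly), 0.0926 and 0.0156 (DBL with ColGFP) and 0.045 to 0.102 (TDonly with ColGFP). Not all passed 0.1, so the numbers were not taken to pair the libraries. Between TDonly and ColGFP, 3 of 3 TDonly libraries and 2 of 3 ColGFP libraries correlated best with their own number. DBL replicate 4 had no partner of its number. Libraries were also grouped by neighbouring core numbers, a grouping made here from the numbers alone. The DBL and TDonly pairs of these groups correlated at 0.527, 0.306 and 0.34, and the DBL and ColGFP pairs at 0.0926, 0.0143 and 0.122.

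The changes of sign were small. In DBL vs TDonly, Hoxa5 became -0.091 with library totals, -0.041 with upper-quartile factors, -0.0023 with the 10 CPM filter and -0.019 with the replicate block, and ran from -0.12 to 0.15 as each library was left out. Hoxb5 became -0.055 with library totals, -0.0087 with upper-quartile factors and -0.044 with the replicate block, and ran from -0.028 to 0.15 with a library left out, as Hoxa2 did from -0.0014 to 0.21. In DBL vs ColGFP, Hoxa3 became 0.029 with library totals and ran from -0.16 to 0.096 with a library left out, and Hoxc4 became -0.0053 in the higher range of core numbers and ran from -0.10 to 0.37. The cause was not tested. Depth limits Hoxb7, Hoxb8, Hoxc4 and the 16 untested genes.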
